A study of Mus musculus with 6 samples.

Results

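The genes described here encode secreted salivary defence proteins and epithelial mucins, in mouse submandibular salivary gland organoids (mSGOs). The list holds 10 genes, Slpi, Wfdc2, Defb1, Lcn2, Ltf, Lyz2, Pigr, Muc1, Muc4 and Muc20, out of 47643 gene IDs in the count tables. They were chosen by name, with earlier results of these data known. The GENCODE vM39 annotation gave their Ensembl IDs and placed 9 of the 10 in the tables. Muc4 had no ID there that matched the annotation, so it is not analysed here.

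The mSGOs were grown from submandibular glands of C57BL/6 mice aged 8 to 12 weeks, which per the methods of the study were females. All were non-irradiated and untreated and grew in Matrigel in WRY medium, which holds Wnt3a- and R-spondin1-conditioned medium with EGF, FGF2, insulin, dexamethasone and Y27632. mSGOs of 3 mice were collected at day 5 and again at day 7, which gave 6 libraries, and the same mouse number stands for the same animal at both days. Before Matrigel, the cells had been kept as spheres and dissociated to single cells, so the libraries hold cultured progeny of gland cells and no gland tissue. The comparison asks how RNA of these genes differed between the earlier and the later mSGOs.

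Saliva protects the mouth by several routes. Small cationic proteins such as β-defensins disrupt microbial membranes. Proteins with a whey acidic protein (WAP) domain, such as Slpi, restrain the proteases released by neutrophils. Lactotransferrin and lipocalin 2 keep iron from bacteria, lysozyme cuts the bacterial cell wall, and the polymeric immunoglobulin receptor carries immunoglobulin A through the epithelium into saliva. Mucins coat the surface, either as secreted gels or, like Muc1, Muc4 and Muc20, as long glycoproteins anchored in the cell membrane.

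The 6 libraries held 1918198 to 2837397 reads in genes. A gene without a read in a library could still hold up to 3 reads there, or 1.04 to 1.51 CPM (reads per 1000000 in the library), and such floors and all intervals below cover counting error only. Libraries of day 7 were less alike than those of day 5, with a chi-square per degree of freedom between same-day libraries of 12.3 to 19.9 against 1.99 to 3.25. The 10 markers of epithelial cells summed to 14557 to 18313 CPM at day 5 and 12085 to 16410 CPM at day 7, so epithelial markers were found in every library. Markers of the acinar and granular duct cells of the adult gland were low, and 13 of 24 had no read in any library. The 24 summed to 9.54 to 19.0 CPM at day 5 and 13.0 to 37.2 CPM at day 7 (exact permutation test, two-sided, p = 0.4). Of the 9 tested singly, 1 was called higher at day 7, 1 lower and 7 neither. Pip had 3 reads at day 5 and 46 at day 7 (edgeR adjusted p = 0.0143), and Egf had 9 and 0 (0.0499). Aqp5 held 56 of the 108 marker reads at day 5 and 106 of the 169 at day 7. Its day 7 values all lay above those of day 5, but it was not called (edgeR adjusted p = 0.123). All of these genes were looked up after the sums were seen. In bulk RNA, fewer cells of a type and less RNA per cell cannot be told apart, which holds for every level given here.

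Of the 9 genes found, 7 had at least 1 read in at least 2 libraries and were tested, and 5 of those had 10 reads or more in all. Slpi, Defb1 and Lcn2 were higher at day 7 and no gene was lower, where a call needed both an edgeR adjusted p below 0.05 and a log2 fold change beyond 0.6 in size. Among all 15792 genes tested, 12% changed in either direction and 7.22% were higher. An unadjusted p under 0.05 was found in 5 of the 7, all with higher values at day 7, and in 25.8% of all genes tested. DESeq2 also called 3. In Slpi, Defb1 and Lcn2, all day 7 values lay above all day 5 values, which was true of 15.4% of all genes tested. The median log2 fold change of the 7 tested genes was 1.85, against -0.01 over all genes tested. This median includes Pigr and Muc1, each fitted from 3 reads in all, and the list was chosen with earlier results of these data known. Together the 9 genes took 0.0784% to 0.102% of the reads in genes at day 5 and 0.146% to 0.188% at day 7. Most of these reads came from Wfdc2 at day 5, with a share of 75.7% to 81.3%. At day 7 that share was 41.8%, 49.5% and 77.5% in mice 1, 2 and 3.

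**Figure D1:**
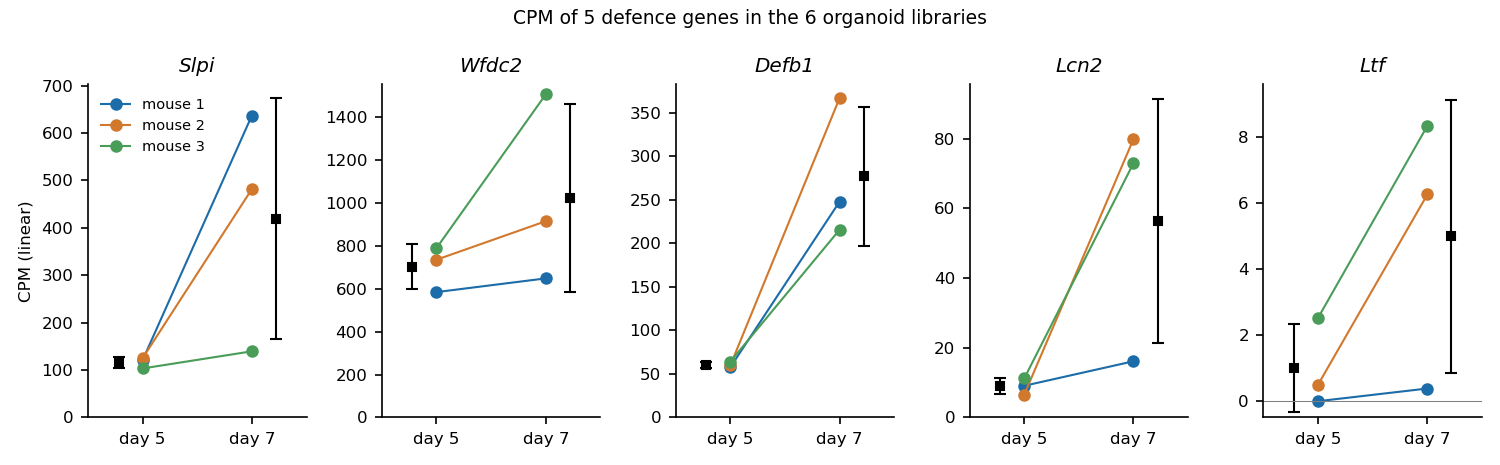
CPM on a linear axis for Slpi, Wfdc2, Defb1, Lcn2 and Ltf in each library, with a line for each mouse from day 5 to day 7. Black squares with bars are the mean and SD of 3 libraries. Every line ends above its start, but the mouse at the top at day 7 differs between genes: mouse 1 for Slpi, mouse 2 for Defb1 and Lcn2, and mouse 3 for Wfdc2 and Ltf.

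Promoter windows were placed in the genome for 4 genes on chromosomes 2 and 9, namely Slpi, Wfdc2, Lcn2 and Ltf. Those of Slpi and Ltf are shown, as only they held 30 annotated exon bases or fewer. The RefSeq promoter table (GRCm38.p6) held 9 of the 10 genes. The 200 bases before each start were matched, without mismatch and once only, to GRCm39, which placed the Slpi window at chr2:164198428-164198627 on the minus strand and the Ltf window at chr9:110848160-110848359 on the plus strand. The Slpi window lies outside all annotated exons, in an intron of a longer annotated Slpi transcript, and the Ltf window covers 21 annotated exon bases at its 3′ end. Capitals mark matches on either strand to 6 motifs: the TATA box (TATAAA), C/EBP (TTGCNNAA), NF-kB (GGANTTTCC), ETS (AGGAAG), AP-1 (TGANTCA) and STAT (TTCCNGGAA).
Slpi: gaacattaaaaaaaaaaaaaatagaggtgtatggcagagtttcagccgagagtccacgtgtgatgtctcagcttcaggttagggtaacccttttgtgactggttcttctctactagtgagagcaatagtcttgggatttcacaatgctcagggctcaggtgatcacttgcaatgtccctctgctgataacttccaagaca
Ltf: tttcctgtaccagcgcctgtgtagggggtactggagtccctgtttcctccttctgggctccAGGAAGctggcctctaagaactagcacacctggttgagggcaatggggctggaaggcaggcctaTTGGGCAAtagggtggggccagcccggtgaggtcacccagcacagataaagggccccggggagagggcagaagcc
The Slpi window held none of the 6 motifs. The Ltf window held an ETS match that begins 139 bases before the start and a C/EBP match that begins 75 bases before it. The ETS letters also occurred in the windows of Wfdc2 (1 match), Lcn2 (2), Lyz2 (2) and Muc20 (1), the last 2 being genes with 0 and 1 reads in all. The Wfdc2 and Lcn2 windows are not printed because most of their bases are annotated as exon. Of 32544 RefSeq promoter windows of the same length, 24.8% held the ETS letters, 7.50% C/EBP, 9.89% the TATA box, 5.48% AP-1, 0.882% NF-kB and 0.765% STAT. A match is a run of letters, and binding was not measured.

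Slpi, the secretory leukocyte protease inhibitor, blocks neutrophil elastase and also kills bacteria. The gene (ENSMUSG00000017002) lies on the minus strand of chromosome 2, from 164195990 to 164231015 in GRCm39. Its reads numbered 293, 249 and 287 at day 5 in mice 1, 2 and 3, and 1661, 1388 and 285 at day 7. In CPM this was 121, 125 and 103 at day 5 and 637, 482 and 139 at day 7. The day 5 values were close together, with a mean of 116 ± 11.5 CPM (SD, n = 3), while those of day 7, at 419 ± 255 CPM, split into high values in mice 1 and 2 and a low value in mouse 3. The days did not overlap, since even the lowest day 7 value was above the highest of day 5. Within mice the ratio of day 7 to day 5 was 5.27, 3.85 and 1.35. The fitted log2 fold change was 1.85 ± 0.35 (SE), with an edgeR adjusted p of 0.00184. This call was lost when edgeR's robust option was used, with an adjusted p of 0.114 at the same fold change.

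Exons of 2 annotated genes on the same strand, Matn4 and Mir7678, overlap those of Slpi, and reads were looked up for Matn4 only. An annotated Slpi transcript shares 179 bases at its 3′ end with Matn4, a matrix gene on the same strand. Matn4, looked up for this reason, had 2, 3 and 2 reads at day 5 and 2, 3 and 5 at day 7, a small number beside those of Slpi.

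Wfdc2, a secreted WAP-domain protein of glandular ducts and airways also known as HE4, lies on the plus strand of chromosome 2 from 164403475 to 164411377 (ENSMUSG00000017723). It had 1418, 1466 and 2194 reads at day 5 and 1692, 2638 and 3080 at day 7. These were 585, 736 and 790 CPM at day 5 and 649, 916 and 1508 CPM at day 7. The days overlapped, as mouse 1 at day 7 lay below mice 2 and 3 at day 5. Means were 704 ± 106 CPM and 1024 ± 439 CPM (SD, n = 3). Each mouse had a higher value at day 7 than at day 5, with ratios of 1.11, 1.24 and 1.91. At a log2 fold change of 0.54 ± 0.25 (SE) Wfdc2 was not called (edgeR adjusted p = 0.178, unadjusted p = 0.044). It passed without the day 7 library of mouse 1 (log2 fold change 0.78, adjusted p = 0.0116).

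Defb1, the β-defensin that epithelia make without an inducer, had the smallest p of the 9 genes. It lies on the plus strand of chromosome 8 from 22266584 to 22285201 (ENSMUSG00000044748). Its reads numbered 140, 119 and 178 at day 5 and 647, 1058 and 441 at day 7. In CPM the values were 57.7, 59.7 and 64.1, then 248, 367 and 216. Every day 7 library was thus far above the narrow range of day 5. The mean went from 60.5 ± 3.26 CPM to 277 ± 79.7 CPM (SD, n = 3), and the ratios within mice were 4.30, 6.15 and 3.37. The log2 fold change was 2.19 ± 0.22 (SE), with an edgeR adjusted p of 4.12e-06. Defb1 alone among the 9 genes passed the threshold in all 15 other fits run, with log2 fold changes of 1.94 to 2.34.

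Lcn2, lipocalin 2, binds the siderophores with which bacteria take up iron. It lies on the minus strand of chromosome 2 from 32274645 to 32278264 (ENSMUSG00000026822). Reads numbered 22, 13 and 31 at day 5 and 42, 230 and 149 at day 7, or 9.07, 6.53 and 11.2 CPM and then 16.1, 79.8 and 72.9 CPM. At day 7 mice 2 and 3 were high, and mouse 1 was only slightly above the day 5 range. The means were 8.92 ± 2.32 and 56.3 ± 35.0 CPM (SD, n = 3), and the ratios within mice were 1.78, 12.2 and 6.53. The log2 fold change of 2.63 ± 0.44 (SE) had an edgeR adjusted p of 0.000612. With the robust option the adjusted p was 0.0534 and the call was lost.

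Ltf, lactotransferrin, binds free iron and is a major secretory protein of exocrine glands and neutrophils. The gene (ENSMUSG00000032496) lies on the plus strand of chromosome 9 from 110848339 to 110871835. Its raw counts were 0, 1 and 7 at day 5 and 1, 18 and 17 at day 7. As in Lcn2, mice 2 and 3 held nearly all day 7 reads. The 8 reads of day 5 and 36 of day 7 gave a pooled ratio of 4.30, with an exact 95% interval of 1.96 to 10.7. At a fitted log2 fold change of 2.11 ± 0.85 (SE) Ltf was not called (edgeR adjusted p = 0.118). Ltf passed with the mouse as a block, at a log2 fold change of 2.25 and an adjusted p of 0.00976. It also passed without the day 7 library of mouse 1, at 2.66 and 0.00786, and with no filter on low counts, with an adjusted p of 0.0073.

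Day 7 libraries thus differed in which of these genes were high. With 1 library for each mouse at day 7, differences between animals, cultures and library preparations cannot be told apart. Slpi was 4.57 times higher in mouse 1 than in mouse 3. Lcn2 was 4.53 times and Wfdc2 2.32 times higher in mouse 3 than in mouse 1, whereas Defb1 was 1.15 times higher in mouse 1. Among 8144 genes that averaged 10 CPM or more at day 7, mouse 1 was more than 2 times mouse 3 in 11.1% and less than 0.5 times in 6.62%. The coefficient of variation over the 3 libraries went from 9.86% at day 5 to 60.7% at day 7 for Slpi, from 15.1% to 42.9% for Wfdc2, from 5.38% to 28.8% for Defb1 and from 26.0% to 62.1% for Lcn2.

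Lyz2, lysozyme M of macrophages and other myeloid cells, had no read in any of the 6 libraries. This allows a level of up to 0.204 CPM over all libraries together. Its relative Lyz1, which shares a run of 104 bases with it near the 3′ end, had no read either, and how reads that fit both genes were counted is not given in the sources used here. Pigr, the immunoglobulin A transporter, had 0, 0 and 1 reads at day 5 and 1, 0 and 1 at day 7. No difference between the days was detectable at this depth. The end of Pigr shares 103 bases with the predicted gene Gm69488, so the 3 reads are uncertain.

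The membrane mucins were as scarce. Muc1, which lines the apical face of ductal cells, had 1, 0 and 0 reads at day 5 and 1, 1 and 0 at day 7. Muc20 had 1 read, in mouse 2 at day 7, and none elsewhere. With 3 reads or fewer in all, Pigr, Muc1 and Muc20 were at or under the floor on both days, and no fold is given. Whether reads were counted by strand is not given in the sources used here, and genes overlap Lyz2 and Muc20 on the opposite strand.

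**Figure D2:**
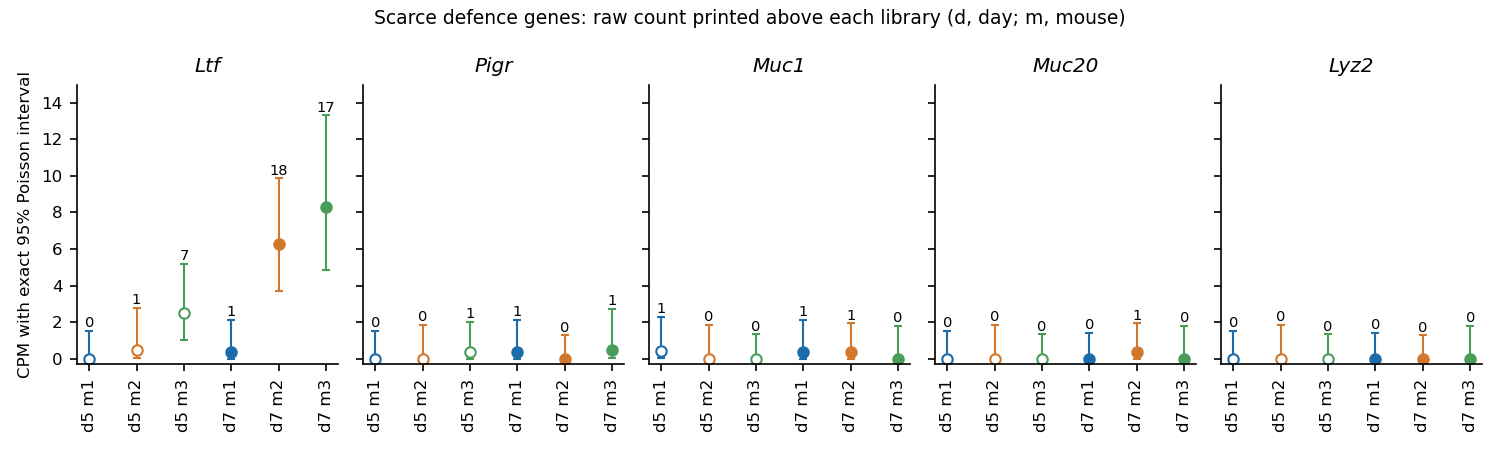
CPM of the 5 scarcest genes in each library (d5 and d7 for the days, m1 to m3 for the mice) with exact 95% Poisson intervals, and the raw count printed above. Open circles are day 5 and filled circles day 7. Only Ltf exceeds 1 read in a library, with 7 in mouse 3 at day 5 and 18 and 17 in mice 2 and 3 at day 7, and Lyz2 stays at 0.

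Lcn2, Ltf and Lyz2 are also genes of neutrophils and macrophages, and Pigr works on the product of plasma cells, so markers of these cells were summed. Of 18 myeloid markers, 15 had no read in any library, among them Adgre1, Csf1r, Itgam and Mpo. The 18 summed to 0.360 to 1.65 CPM at day 5 and 3.83 to 6.85 CPM at day 7 (exact permutation test, two-sided, p = 0.1, the smallest that 3 against 3 libraries can give). Nearly all of this was Cd68, a lysosomal protein looked up after the sums were seen. Without it the other 17 markers held 0 reads at day 5 and 2 at day 7. None of 10 lymphoid and plasma cell markers had a read. Fibroblast markers summed to 10.3 to 16.6 and 24.5 to 24.99 CPM and endothelial markers to 14.0 to 16.1 and 28.5 to 37.2 CPM (exact permutation test, p = 0.1 for each), and their part in the results was not tested. A few genes, looked up after the sums were seen, carried both. Fbln1 held 98 of 101 fibroblast marker reads at day 5 and 169 of 186 at day 7, while Col1a2, Col3a1, Lum and Dpt had none. Flt1 and Egfl7 held 15 and 78 of 108 endothelial marker reads at day 5 and 102 and 122 of 241 at day 7, while Cdh5 and Tek had none and Pecam1 had 2 at day 5 and 0 at day 7.

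Other genes of epithelial defence were described from 6 lists, chosen with earlier results of these data known. They matched 120 gene IDs, of which 33 had no read and 85 were tested. Of these, 23 were higher at day 7 and 2 were lower, with a median log2 fold change of 0.51. With genes that had no read on 1 of the days set to their bound, this median was 0.42. These counts stand beside the 12% of all genes that were called. Without the day 5 library of mouse 3, and likewise without the day 7 library of mouse 2, 15 genes of the lists passed.

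The list of other WAP-domain genes and cystatins, which also holds the protease inhibitor Spink5, had 11 of 21 genes tested, with 5 higher, 1 lower and a median of 1.07. Only 3, all higher, passed without any single library of day 5, without mouse 2 of day 7 or with glmTreat. Wfdc5, a WAP-domain neighbour of Slpi on chromosome 2, had 1, 0 and 0 reads at day 5 and 27, 46 and 22 at day 7 (edgeR adjusted p = 1.29e-05). Wfdc12 had no read at day 5 and 26, 22 and 5 at day 7, which is at least 16.9-fold higher when 3 reads are allowed over day 5 (adjusted p = 0.000539). Spink5, which restrains the kallikreins of stratified epithelium, rose from 142 ± 15.1 to 518 ± 143 CPM (1.87 ± 0.22 on the log2 scale, adjusted p = 2.01e-05). Cst3, the secreted cystatin C, had a log2 fold change of 1.07 (adjusted p = 0.013), and this call was lost in 4 of the 6 fits that leave out a library. Wfdc18 (15, 2 and 21 reads, then 11, 53 and 105) was high in mice 2 and 3 as Lcn2 was, and its call (adjusted p = 0.0272) was lost in 9 of 15 other fits. Cstb, an intracellular cystatin, stood at 343 ± 20.4 and 284 ± 152 CPM (adjusted p = 0.622). The gene that was lower, named after its values were seen, was Cst6 (log2 fold change -1.83 ± 0.50, adjusted p = 0.0222).

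Slpi and Wfdc2 belong to a group of WAP-domain genes on chromosome 2. Of 12 such genes on the lists, which span 164018247 to 164587871, 5 had reads and 7 had none. The 3 that were higher were Slpi, Wfdc5 and Wfdc12, the last 2 at -178 and -165 kb from the 3′ end of Slpi along the chromosome. Wfdc2 lay at 215 kb, and Wfdc3, with 4 reads at day 5 and 11 at day 7, at 377 kb. Genes without a read stood between the expressed ones on both sides.

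**Figure D3:**
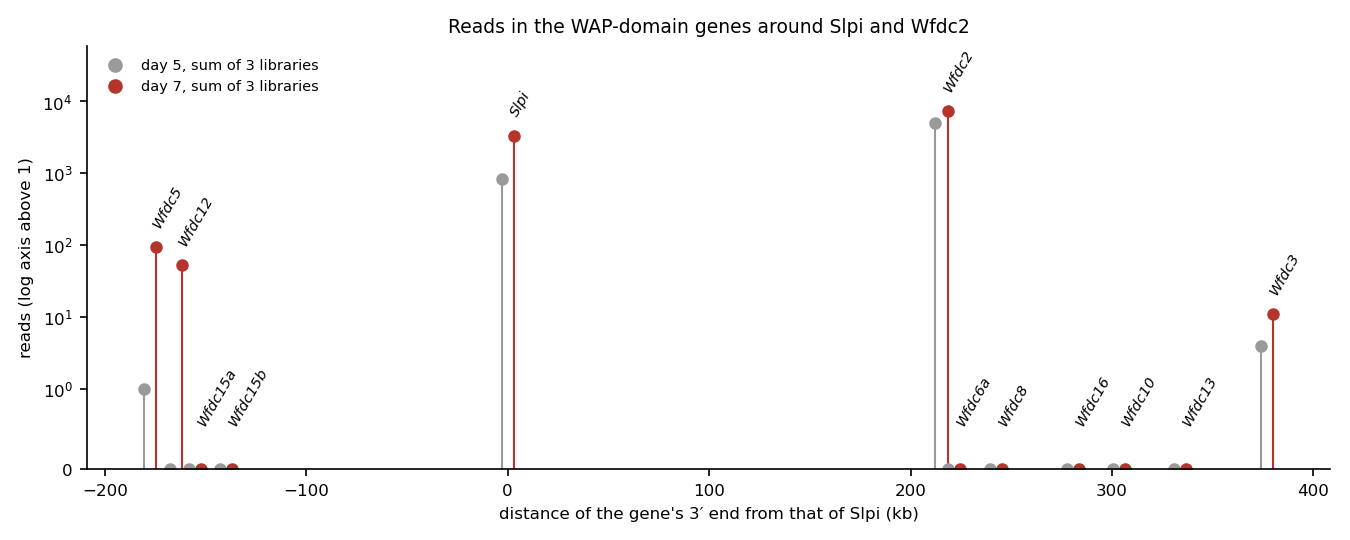
Reads per gene, summed over 3 libraries of day 5 (grey) and of day 7 (red), for 12 WAP-domain genes, against the distance in kb of each 3′ end from that of Slpi. The vertical axis is logarithmic above 1 read. Reads are found in Wfdc5, Wfdc12, Slpi, Wfdc2 and Wfdc3, and the other 7 genes lie at 0.

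Of the defensins and other antimicrobial proteins, 15 of 26 matched genes were tested, with 6 higher and 0 lower. The median was 2.16, or 1.496 with genes lacking reads on 1 of the days set to their bound. Defb4, which epithelia induce on infection, had 0, 1 and 1 reads at day 5 and 22, 37 and 20 at day 7 (edgeR adjusted p = 3.74e-05), and it shares 72 bases near its 3′ end with Defb8. Defb14, the mouse relative of human β-defensin 3, had 4, 0 and 4 reads and then 36, 64 and 12 (adjusted p = 0.000543). With Defb3, added after its values were seen (3 reads at day 5 and 51 at day 7), 4 of the 6 β-defensins of chromosome 8 on the lists were higher, Defb1 included. Defb2 had no read and Defb6 only 3, all at day 7.

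Pglyrp4, a secreted protein that binds bacterial peptidoglycan, had 0, 1 and 3 reads at day 5 and 125, 219 and 10 at day 7. Mouse 3 was the low one, as for Slpi, and the call (edgeR adjusted p = 0.000123) was lost with the robust option (0.0764). Its relative Pglyrp1, named after its values were seen, went from 9 to 61 reads (adjusted p = 0.00138). S100a8, a subunit of the metal-binding complex calprotectin, rose from 47.4 ± 9.46 to 211 ± 80.6 CPM (2.16 ± 0.26 on the log2 scale, adjusted p = 2.48e-05). Its partner S100a9 stood at 83.2 ± 8.41 and 147 ± 86.2 CPM (adjusted p = 0.115) and passed without the day 7 library of mouse 3 (8.14e-05). Complement C3 had 116, 90 and 125 reads at day 5 and 57, 94 and 138 at day 7 (adjusted p = 0.747).

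Among other mucins and mucin-like proteins, 8 of 15 matched genes were tested and 3 were higher. The median was 1.53, or 0.67 with bounds. Leaving out any single library of day 5, or mouse 2 of day 7, left 1, as did glmTreat. Muc10 and Muc19, mucins of rodent salivary glands, had no matching ID under these names, so no value is given under them. Other names of these genes were not looked up, so their reads may stand under another name. Prol1, on the same list and named after its values were seen, had no read in any library. The gel-forming mucins Muc2, Muc5ac and Muc5b were among the 7 genes without a read, and are named after their values were seen. Podxl, podocalyxin of apical membranes, had 7, 5 and 13 reads at day 5 and 37, 65 and 29 at day 7 (edgeR adjusted p = 0.000459). Cd24a, a small mucin-like surface protein, had a log2 fold change of 0.76 ± 0.19 (adjusted p = 0.0138). Muc15, a membrane mucin, had 1, 2 and 1 reads and then 20, 15 and 1 (adjusted p = 0.0239). The Cd24a call was lost in 5 of 15 other fits, and the Muc15 call in 7 of the 14 fits that tested it. Cd164 and Mcam did not pass (log2 fold changes 0.54 and 0.40).

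Of the genes listed for mucin glycosylation and secretion, 18 of 23 were tested, with a median of 0.48. Of these 18, 2 were higher, beside 12% called over all genes tested. Without mouse 3 of day 5, or without mouse 2 of day 7, 0 passed in edgeR (4 at an unadjusted p under 0.05), and 1 passed without mouse 1 or mouse 2 of day 5 or with glmTreat. C1galt1, which extends the first sugar of mucin chains, was higher by 1.02 ± 0.24 on the log2 scale (edgeR adjusted p = 0.00826). Fut2, which adds the terminal fucose of secreted blood group sugars, had 5, 7 and 3 reads at day 5 and 25, 38 and 9 at day 7 (adjusted p = 0.00954). Both calls were lost in 3 of the 6 fits that leave out a library. Galnt6 and Galnt7, which start the chains, had log2 fold changes of 0.52 and -0.21 and did not pass.

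Of 16 transcription factors and inhibitors that act on epithelial defence genes, all were tested, with 5 higher, 1 lower and a median of 0.24. The epithelial ETS factors were among those higher. Ehf rose from 157 ± 10.8 to 448 ± 145 CPM (1.51 ± 0.22 on the log2 scale, edgeR adjusted p = 0.000218) and Elf3 from 18.5 ± 3.94 to 67.5 ± 27.3 CPM (1.86 ± 0.30, adjusted p = 0.000409). Elf5 had no read at day 5 and 9, 10 and 7 at day 7, at least 8.28-fold higher (adjusted p = 0.00208). Cebpd, a C/EBP factor of the acute phase response, rose from 12.3 ± 6.27 to 42.9 ± 16.6 CPM (1.79 ± 0.35, adjusted p = 0.00242). Nfkbia and Hif1a did not pass (log2 fold changes 0.42 and 0.53). Named after their values were seen, Cebpb was higher (0.82 ± 0.19, adjusted p = 0.0082) and Nfkbiz, a partner of NF-kB in the induction of Lcn2, was lower (-0.77 ± 0.24, adjusted p = 0.0449). The Nfkbiz call was lost in DESeq2, with glmTreat, without any single library of day 5 and without mouse 2 of day 7, among other fits.

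Of receptors and adaptors for cytokines and microbial products, 17 of 19 were tested, with a median of 0.26. Of these 17, 2 were higher, beside 12% called over all genes tested. The number was 5 with the mouse as a block, with no filter or without mouse 1 of day 7. It was 1 in DESeq2 and without mouse 1 or mouse 3 of day 5 or mouse 2 of day 7. With glmTreat of edgeR it was 0 (4 at an unadjusted p under 0.05), with an adjusted p of 0.093 for Ifngr1 and 0.206 for Osmr. These were Ifngr1, of the interferon-γ receptor (log2 fold change 1.10 ± 0.23, edgeR adjusted p = 0.00369), and Osmr, of the oncostatin M receptor (1.16 ± 0.34, adjusted p = 0.0322). The Osmr call was lost in 6 of 15 other fits. Tnfrsf1a and Il6st did not pass (log2 fold changes -0.06 and 0.51).

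**Figure D4:**
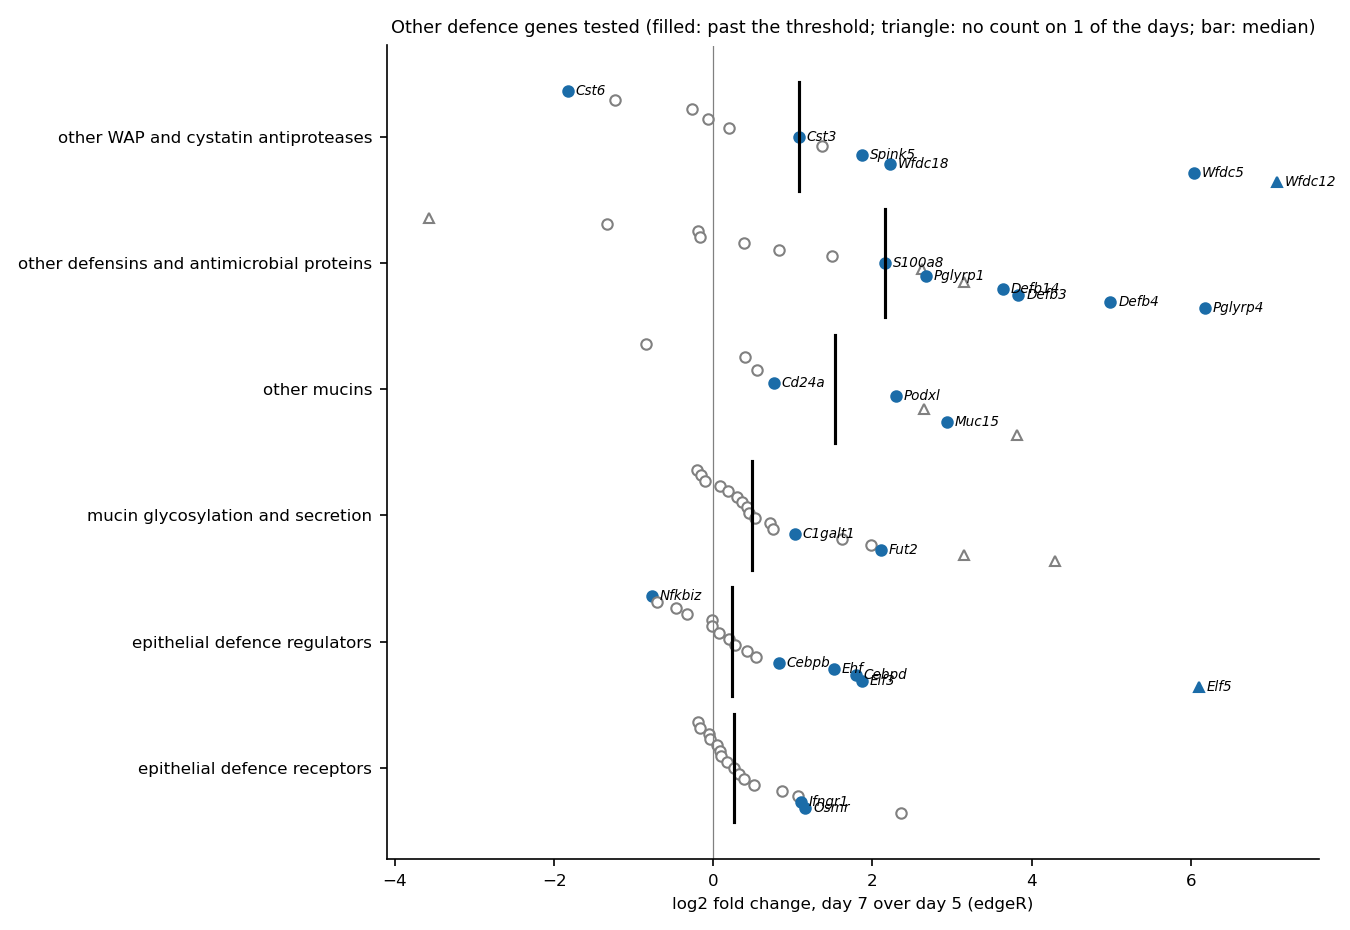
Fitted log2 fold changes, day 7 over day 5, of the 85 other defence genes tested, by list. Filled symbols passed the threshold and carry a name, triangles had no read on 1 of the days so that their place depends on the fit, and black bars are list medians. Height within a list follows the order of the values. Of the 25 that passed, 23 lie to the right of 0 and Cst6 and Nfkbiz to the left.

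The calls of the members were then compared over 15 other fits. Defb1 passed in all of them. Slpi and Lcn2 each passed in 14, and Wfdc2 in 1. Ltf passed in 3 of the 14 fits that tested it. Every fit gave each of the 5 genes a log2 fold change above 0.

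**Figure D5:**
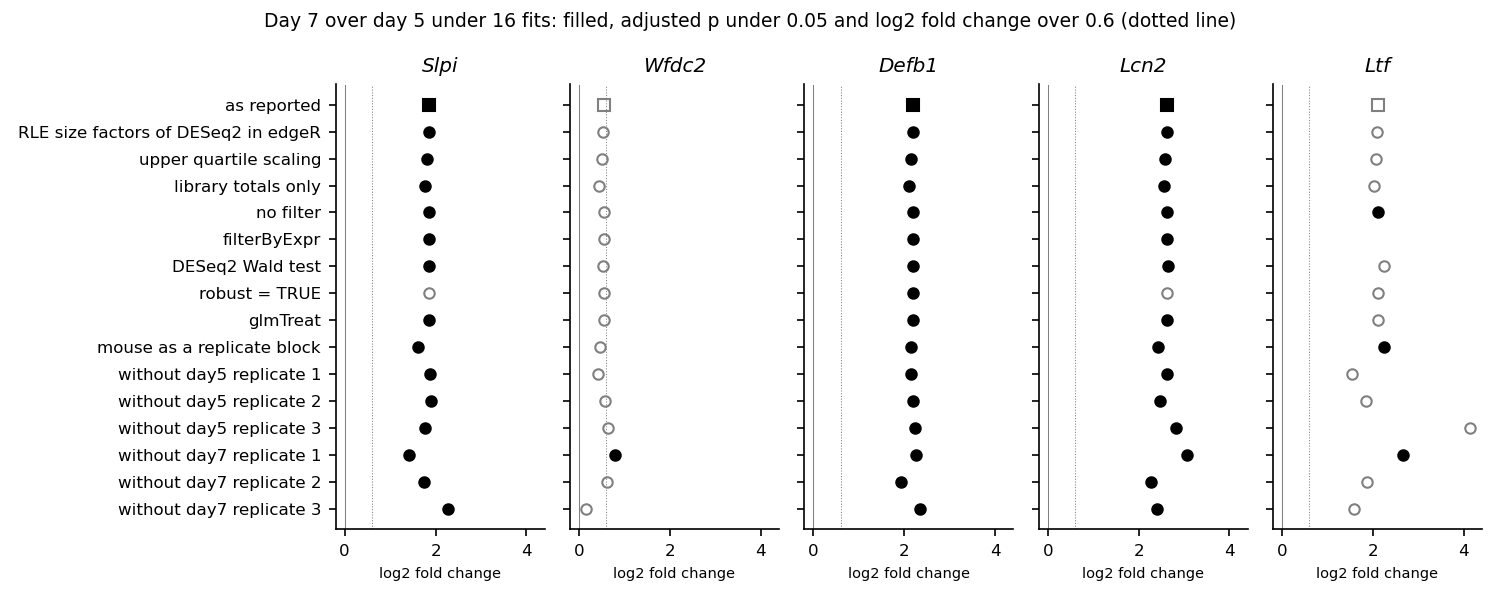
Fitted log2 fold change of the 5 best-covered genes (horizontal axis) in the reported fit (square) and 15 alternatives (circles). Filled symbols passed an adjusted p of 0.05 and a log2 fold change of 0.6, which the dotted line marks. Defb1 is filled throughout, Slpi and Lcn2 are open only with the robust option, and Wfdc2 and Ltf are mostly open.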

How the data were processed

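RNA of mSGOs from 3 mice at day 5 and day 7 was measured with the Lexogen QuantSeq 3′ kit, in which a read marks a transcript end. The deposited files hold whole-number read counts per Ensembl gene ID, which the authors made by alignment to GRCm39. edgeR stands in the submitters' processing notes. The aligner, annotation release and strand setting are not given in the sources used here. Entries that name no gene (13.7% to 14.4% of reads at day 5, 9.12% to 9.74% at day 7) were left out. Names and coordinates came from GENCODE vM39, which matched 43465 IDs (91.2%).

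For the tests, edgeR 4.0.16 (R 4.3.3) was run with its quasi-likelihood functions glmQLFit and glmQLFTest, two-sided, on TMM-scaled counts with day as the single factor. A gene entered with 1 count or more in 2 libraries or more, and p-values had Benjamini-Hochberg adjustment over everything tested. The thresholds for a call, 0.05 for the adjusted p and 0.6 for the size of the log2 fold change, follow the study's methods. CPM divide counts by the TMM-scaled library size and multiply by 1000000. The step was also run on simulated counts of unpaired libraries in which only well-covered genes were changed. That run therefore does not speak to scarce genes or to the pairing by mouse. Marker sums were compared by an exact permutation test. Intervals are exact at 95% and cover counting error only, as reads carried no molecular identifiers. Libraries of 1 number come from 1 mouse, per the titles and design text. Deviations of same-mouse libraries correlated at 0.14, -0.10 and 0.16 over 8171 genes.

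The members and all gene lists were chosen with earlier results of these data known. Named are the 10 members and, from each other list, up to 4 called genes with the smallest p and up to 2 further genes with the highest mean CPM. Alternatives were 3 other scalings, 2 other filters, DESeq2 1.42.0, the robust option, glmTreat, the mouse as a block and leaving out each library. Marker sums without Cd68 were added after the data were seen. Promoter sequences came from RefSeq (GRCm38.p6).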

Additional observations from a re-analysis of the deposited data

How the results depend on the processing

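Over all genes, 1901 passed in the reported fit (1140 higher, 761 lower). With scaling by library totals the split was 950 higher and 1008 lower. glmTreat against the minimum fold change left 623, and leaving out 1 library gave 794 to 2575. Of the listed members, 3 passed in the reported fit, 1 with the robust option, 4 with no filter and 3 to 5 when 1 library was left out, the 5 being without mouse 1 of day 7. With the mouse as a block 4 members passed, Ltf being the added one, and no other member's call changed with that pairing. The block moved the receptors from 2 to 5 calls. Of the other lists, 25 genes passed, 15 with glmTreat and 15 to 32 when 1 library was left out. In fits without 1 library the log2 fold change turned in sign for Cstb (-0.60 to 0.11), C3 (-0.75 to 0.10), Nfkbia (-0.091 to 0.72) and Tnfrsf1a (-0.22 to 0.073), none of which passed in the reported fit. The difference in summed myeloid markers fell from 4.52 to 0.256 CPM without Cd68. Apart from the effect of fewer libraries, the cause of these changes was not tested. For Pigr, Lyz2, Muc1 and Muc20 the depth allows no statement on a change below about the floor of 1.04 to 1.51 CPM per library.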
